A study of Mus musculus with 12 samples.

Results

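A set of 10 genes of iron handling was examined in mouse peritoneal macrophages that had been exposed to lipopolysaccharide (LPS), a component of the outer membrane of Gram-negative bacteria. The genes were taken from a list of genes of iron uptake, storage and export, each represented by its RefSeq transcript with the highest mean count, and make up 10 of the 24562 genes in the count table. Transferrin receptor 1 (Tfrc) and the metal transporters Slc11a1 and Slc11a2 bring iron in or move it between compartments. The ferritin heavy and light chains (Fth1 and Ftl1) store it, ferroportin (Slc40a1) and ceruloplasmin (Cp) serve its release, and lipocalin 2 (Lcn2) binds bacterial siderophores. The iron regulatory proteins, encoded by Ireb2 and Aco1, control several of the others.

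RNA was sequenced from peritoneal macrophages of female mice in 4 groups of 3 libraries. The groups were high fat diet (HFD) with 24 h of LPS, chow with 24 h of LPS, HFD with 0 h of LPS and chow with 0 h of LPS. All groups share the tissue, the sex and the kits. Strain, genotype, age, the composition of the diet and the LPS dose were not given in the sources used here. No group kept for 24 h without LPS is named, so effects of LPS and of elapsed time cannot be told apart, and "LPS change" below means 24 h against 0 h. Whether the libraries of a group came from separate animals is not stated. The p-values therefore reflect the spread among these libraries, which may be technical only.

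Iron enters macrophages bound to transferrin, through transferrin receptor 1, or in the haem of engulfed red cells, and what the cell does not use is held in ferritin or leaves through ferroportin, the only known cellular iron exporter of mammals. When iron is scarce, the iron regulatory proteins bind hairpins called iron responsive elements in messenger RNAs. Binding in the 5′ untranslated region (UTR) blocks translation of ferritin and ferroportin, and binding in the 3′ UTR protects the Tfrc message from decay. Macrophages are known to withhold iron from microbes during inflammation, a response in which ferroportin, ferritin and lipocalin 2 take part.

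Because these hairpins are the sequence feature that links several of the genes, the transcripts were searched for the motif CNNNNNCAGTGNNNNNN on the transcript strand, where the 5 bases before the loop CAGTGN had to pair with the 5 bases after it (G with T allowed). Of the 10 genes, 4 held such a hairpin: 3 had 1 in the 5′ UTR, and Tfrc had 4 in the 3′ UTR, within 520 bases. Among all genes with an annotated UTR, 31 of 20834 (0.149%) had a match in the 5′ UTR and 144 of 21107 (0.682%) in the 3′ UTR. A match is a description of letters. The windows of 29 bases are shown 5′ to 3′ on the transcript strand, from GENCODE M21 transcripts on GRCm38, with the loop in capitals.
Fth1, 5′ UTR, exon 1, chr19:9982732-9982760 (+): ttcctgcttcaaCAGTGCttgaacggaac
Ftl1, 5′ UTR, exon 1, chr7:45459779-45459807 (−): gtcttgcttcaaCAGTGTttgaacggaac
Slc40a1, 5′ UTR, exon 1, chr1:45925465-45925493 (−): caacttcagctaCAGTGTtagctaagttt
Tfrc, 3′ UTR, exon 19, chr16:32631219-32631247 (+): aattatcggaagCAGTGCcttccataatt
Tfrc, 3′ UTR, exon 19, chr16:32631598-32631626 (+): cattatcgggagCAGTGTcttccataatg
Tfrc, 3′ UTR, exon 19, chr16:32631663-32631691 (+): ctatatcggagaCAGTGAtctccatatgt
Tfrc, 3′ UTR, exon 19, chr16:32631710-32631738 (+): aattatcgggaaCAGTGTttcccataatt
The Fth1 and Ftl1 windows differed at 3 of 29 bases, T1G, C4T and C18T, with the Fth1 base first and positions counted from the 5′ end of the window. C18T is the last base of the loop. In the other 6 genes (Slc11a1, Slc11a2, Lcn2, Ireb2, Aco1 and Cp) no match was found in the transcripts searched. The rule asks for 5 unbroken pairs beside this loop, so iron responsive elements of another form would be missed. A gene without a match may therefore still hold such an element.

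Library totals ranged from 9135057 to 20688308 counts except in HFD 0 h replicate 3, which had 2360244 and stood apart from the others on the second principal component. Some results below are also given without that library. Within groups, libraries correlated across genes at a Spearman rho of 0.935 to 0.976. All 12 macrophage markers had counts in 11 of the 12 libraries, and 11 of them did in HFD 0 h replicate 3. Their summed level, in CPM (counts relative to the scaled library total), was 10395 to 12974 CPM in HFD 24 h, 10342 to 11573 CPM in chow 24 h, 14521 to 16151 CPM in HFD 0 h and 14735 to 16064 CPM in chow 0 h. Erythroid markers, which would mark red cell precursors, summed to at most 1.96 CPM in any library. Stromal and mesothelial markers summed to 1027 to 1155 CPM in HFD 24 h, 1076 to 3163 CPM in chow 24 h, 731 to 1445 CPM in HFD 0 h and 813 to 2562 CPM in chow 0 h. The part of these marker differences in the results below was not tested. In such bulk samples, fewer cells of a type and less RNA per cell cannot be told apart.

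With LPS, the bulk macrophage samples held far more Lcn2 message, more Fth1, Cp, Slc11a1 and Slc11a2, and less Slc40a1, in both diets. Ftl1 did not pass the test in either diet. Tfrc and Aco1 passed, as decreases, in chow. Of the calls in chow, only those of Lcn2, Cp and Tfrc held once a lane tag, described below, was taken into account. The tag could be separated from LPS only through 1 tagged HFD library, and all 8 calls had larger standard errors with it. All 10 genes passed the filter on low counts. In HFD, 6 of 10 genes passed edgeR's quasi-likelihood test (5 higher, 1 lower), where 24.6% of the 12641 genes tested passed (12.7% higher). In chow, 8 of 10 passed (5 higher, 3 lower), where 26.6% did (13.7% higher, 12.9% lower). The median log2 fold change of the 10 genes was 0.50 in HFD and 0.31 in chow, beside -0.0023 in HFD and 0.00012 in chow over all genes tested. Adjusted p-values below are from edgeR with Benjamini-Hochberg adjustment over all genes tested, and a gene is said to rise or fall only where that value was under 0.05.

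**Figure D1:**
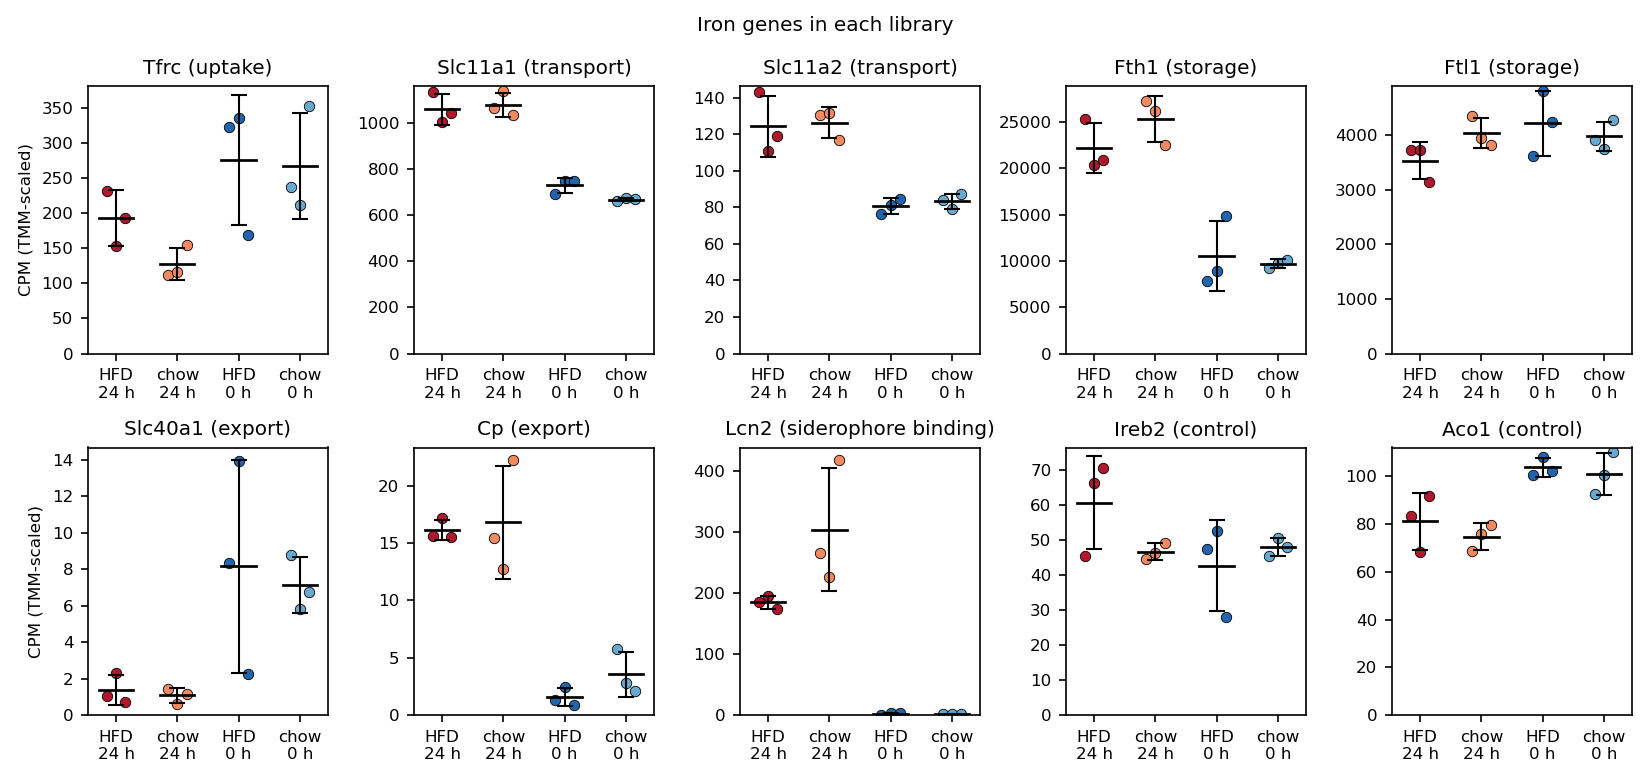
CPM, scaled by TMM, of each iron gene (panels) in the HFD 24 h, chow 24 h, HFD 0 h and chow 0 h libraries. Points are libraries, lines are group means and bars are SD (n = 3). Lcn2 was between 174 and 419 CPM in the 24 h libraries and at most 2.70 CPM in the 0 h libraries.

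**Figure D2:**
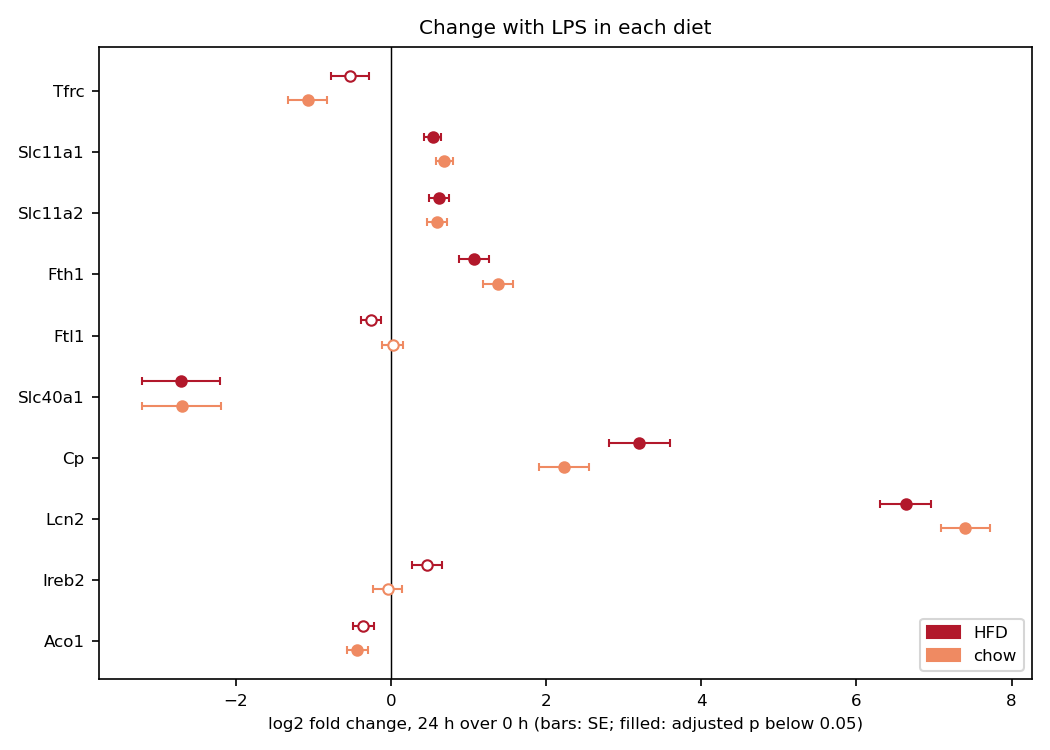
Log2 fold change of each iron gene, 24 h over 0 h of LPS, in HFD (dark) and chow (light), with bars for the SE and filled points where the edgeR adjusted p was under 0.05. Lcn2 stands at 6.63 in HFD and 7.41 in chow, and Slc40a1 at -2.70 in both.

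Tfrc (chromosome 16, 32608896 to 32632794 in GRCm38) encodes the receptor that takes up transferrin-bound iron. Its level was 232, 153 and 194 CPM in HFD 24 h, against 322, 335 and 168 CPM in HFD 0 h. It was 112, 116 and 154 CPM in chow 24 h, against 237, 212 and 352 CPM in chow 0 h. The groups did not overlap in chow, whereas in HFD the shallow library, at 168 CPM, lay among the 24 h values. Tfrc fell in chow (log2 fold change -1.07 ± 0.25 SE, adjusted p = 0.00475). In HFD the difference was -0.52 ± 0.25 (adjusted p = 0.149) with all libraries and -0.77 ± 0.21 (adjusted p = 0.0166) without HFD 0 h replicate 3. The difference between the diets in this LPS change was 0.54 ± 0.35 on the log2 scale (adjusted p = 1), and 0.31 ± 0.29 without HFD 0 h replicate 3.

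Slc11a1 (chromosome 1, 74375014 to 74386057), also called Nramp1, moves metal ions out of the phagosome of macrophages. Its level was 1132, 1001 and 1042 CPM in HFD 24 h, against 691, 749 and 745 CPM in HFD 0 h. It was 1061, 1135 and 1031 CPM in chow 24 h, against 660.2, 673 and 667 CPM in chow 0 h. Every 24 h library was above every 0 h library. Slc11a1 rose in HFD (log2 fold change 0.54 ± 0.11, adjusted p = 0.00152) and in chow (0.69 ± 0.11, adjusted p = 0.000153).

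Slc11a2 (chromosome 15, 100387898 to 100424209), also called DMT1, carries ferrous iron out of endosomes after transferrin uptake. Its level was 143, 111 and 119 CPM in HFD 24 h, against 76.1, 81.3 and 84.5 CPM in HFD 0 h. It was 130.5, 132 and 117 CPM in chow 24 h, against 83.8, 79.2 and 87.2 CPM in chow 0 h. Here too no 24 h library came down to the level of a 0 h library. Slc11a2 rose in HFD (log2 fold change 0.63 ± 0.13, adjusted p = 0.00139) and in chow (0.60 ± 0.13, adjusted p = 0.00168). The table holds 2 Slc11a2 transcripts, and the lower had 97.39% of the counts of the higher, so their reads could not be separated. Slc11a2 overlaps Gm5475 on the opposite strand, and whether the counting used strand was not given in the sources used here.

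Fth1 (chromosome 19, 9980600 to 9985111), the ferritin chain with the iron-oxidising centre, was the most abundant of the 10 genes per transcript length in every group. Its level was 25325, 20346 and 20867 CPM in HFD 24 h, against 7782, 8888 and 14862 CPM in HFD 0 h. It was 27256, 26228 and 22509 CPM in chow 24 h, against 9185, 9740.2 and 10137 CPM in chow 0 h. The 24 h and 0 h libraries did not overlap in either diet, and the shallow library had the highest 0 h value. Fth1 rose in HFD (log2 fold change 1.08 ± 0.19, adjusted p = 0.000412) and in chow (1.39 ± 0.19, adjusted p = 3.39e-05). Without HFD 0 h replicate 3 the HFD change was 1.42 ± 0.15 (adjusted p = 3.04e-06). The transcript that represents Fth1 is a variant labelled non-coding by RefSeq, though the GENCODE transcript matched to it has an annotated coding region. The RefSeq coding transcript held 99.97% of its counts. Levels of Fth1 per kilobase were computed with the coding transcript's 929 bases, not with the 1494 bases of the variant.

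Ftl1 (chromosome 7, 45457944 to 45459886), the chain that helps iron mineral form inside ferritin, did not pass the test in either diet. Its level was 3725, 3722 and 3143 CPM in HFD 24 h, against 3608, 4803.5 and 4229.9 CPM in HFD 0 h. It was 4344, 3942 and 3821 CPM in chow 24 h, against 3910.3, 3738 and 4269 CPM in chow 0 h. The libraries overlapped in both diets. The log2 fold change was -0.26 ± 0.13 in HFD (adjusted p = 0.185) and 0.023 ± 0.13 in chow (adjusted p = 0.926). The ratio of Fth1 to Ftl1, each per kilobase of transcript, was 6.57 ± 0.76 in HFD 24 h, 6.54 ± 0.40 in chow 24 h, 2.61 ± 0.92 in HFD 0 h and 2.55 ± 0.15 in chow 0 h (SD, n = 3 each). The ratio was 5.70 to 7.08 in HFD 24 h and 6.14 to 6.93 in chow 24 h, above the highest 0 h library, the shallow one, at 3.66. With the variant's 1494 bases, a choice tried after seeing the data, the ratio averaged 4.08 ± 0.47 in HFD 24 h, 4.06 ± 0.25 in chow 24 h, 1.62 ± 0.57 in HFD 0 h and 1.58 ± 0.092 in chow 0 h. Fth1 and Ftl1 together held 2.610% of all counts in HFD 24 h, 2.946% in chow 24 h, 1.417% in HFD 0 h and 1.385% in chow 0 h (group means). Ferritin genes have many near-identical processed copies, and how the authors' counting treated reads shared with them was not given in the sources used here. The related genes Ftmt and the Fthl17 family had 0 counts in every library. Ftl1 also overlaps Gm10252 on the opposite strand and Gm22133 on its own.

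Slc40a1 (chromosome 1, 45908070 to 45926532), the iron exporter, was the least abundant of the genes at 24 h. Its level was 1.03, 2.29 and 0.739 CPM in HFD 24 h (13, 41 and 16 counts), against 8.32, 13.9 and 2.25 CPM in HFD 0 h (80, 125 and 5 counts). It was 1.42, 0.628 and 1.18 CPM in chow 24 h (19, 7 and 18 counts), against 8.79, 5.83 and 6.73 CPM in chow 0 h (111, 72 and 81 counts). The chow groups were apart. In HFD they touched through the shallow library, whose 5 counts put it just below HFD 24 h replicate 2. Slc40a1 fell in HFD (log2 fold change -2.70 ± 0.50, adjusted p = 0.00056) and in chow (-2.70 ± 0.51, adjusted p = 0.000685), and the HFD value was -3.02 ± 0.42 (adjusted p = 6.3e-05) without HFD 0 h replicate 3.

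Cp (chromosome 3, 19956933 to 20009750), the copper oxidase that converts exported ferrous iron to the ferric form that transferrin binds, was 15.7, 17.2 and 15.6 CPM in HFD 24 h, against 1.35, 2.45 and 0.899 CPM in HFD 0 h. It was 15.4, 12.7 and 22.3 CPM in chow 24 h, against 5.78, 2.84 and 2.08 CPM in chow 0 h. All 24 h libraries exceeded all 0 h libraries, and the lowest value rests on 2 counts in the shallow library. Cp rose 9.21-fold in HFD (log2 fold change 3.20 ± 0.39, adjusted p = 7.53e-06) and 4.71-fold in chow (2.23 ± 0.33, adjusted p = 5.18e-05). With the 3 transcripts of Cp summed, which counts shared reads more than once, the changes were 2.91 ± 0.36 in HFD and 2.13 ± 0.32 in chow. Cp overlaps Hps3 on the opposite strand.

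Lcn2 (chromosome 2, 32384637 to 32387739) changed most of the 10 genes. Its level was 186, 195 and 174 CPM in HFD 24 h, against 0.832, 2.67 and 2.70 CPM in HFD 0 h, where the libraries held 8, 24 and 6 counts. It was 266, 227 and 419 CPM in chow 24 h, against 1.90, 1.38 and 2.08 CPM in chow 0 h, where they held 24, 17 and 25 counts. Lcn2 rose 99.3-fold in HFD (log2 fold change 6.63 ± 0.33, adjusted p = 2.52e-10) and 169-fold in chow (7.41 ± 0.31, adjusted p = 4.62e-11). Lcn2 is also a granule protein of neutrophils, so a list of 16 other neutrophil markers was read beside it. The list summed to 214 to 259 CPM in HFD 24 h, 202 to 246 CPM in chow 24 h, 128 to 213 CPM in HFD 0 h and 162 to 203 CPM in chow 0 h. Stfa2l1 was at 0 counts in every library. S100a9, Ngp, Elane, Mpo and Ly6g each averaged at most 0.184 CPM in any group, and Prtn3 at most 0.308 CPM. Camp, a granule peptide, averaged 0.669 CPM in HFD 24 h and 0.972 CPM in chow 24 h (35 and 39 counts per group). Camp averaged 0 CPM in HFD 0 h and 0.109 CPM in chow 0 h (0 and 4 counts). Ltf encodes the iron-binding granule protein lactoferrin. Its mean was 0.0791 CPM in HFD 24 h and 0.0497 CPM in chow 24 h (3 and 2 counts per group). Ltf averaged 0.611 CPM in HFD 0 h and 0.602 CPM in chow 0 h (17 and 22 counts). Of the 7 neutrophil markers tested, S100a8 and Mmp9 rose in both diets and Cxcr2 fell in chow. The remaining markers were Csf3r, at group means of 77.4 to 88.8 CPM, Chil3 at 11.6 to 39.9 CPM, Mmp8 at 15.9 to 23.7 CPM and Retnlg at 2.47 to 13.5 CPM. The part of neutrophils in the Lcn2 change was not tested.

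Ireb2 (chromosome 9, 54862658 to 54912534) encodes iron regulatory protein 2, which is broken down when iron is plentiful. Its level was 45.4, 66.2 and 70.4 CPM in HFD 24 h, against 47.4, 52.4 and 27.9 CPM in HFD 0 h. It was 44.5, 46.4 and 49.1 CPM in chow 24 h, against 45.4, 50.6 and 48.0 CPM in chow 0 h. The groups overlapped in both diets. The log2 fold change was 0.47 ± 0.19 in HFD (adjusted p = 0.0901) and -0.041 ± 0.19 in chow (adjusted p = 0.909). The HFD value depended on single libraries: it was 0.66 ± 0.19 (adjusted p = 0.017) without HFD 24 h replicate 1 and 0.29 ± 0.17 (adjusted p = 0.255) without HFD 0 h replicate 3.

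Aco1 (chromosome 4, 40143265 to 40199009) encodes iron regulatory protein 1, which doubles as cytosolic aconitase when it holds an iron-sulfur cluster. Its level was 83.4, 68.2 and 91.8 CPM in HFD 24 h, against 100.5, 108 and 102 CPM in HFD 0 h. It was 68.7, 75.9 and 79.8 CPM in chow 24 h, against 92.4, 100.5 and 110.0 CPM in chow 0 h. No 24 h library reached a 0 h library of its diet. Aco1 fell in chow (log2 fold change -0.43 ± 0.13, adjusted p = 0.0229), a call lost without chow 0 h replicate 2 (adjusted p = 0.069), chow 0 h replicate 3 (0.118), chow 24 h replicate 1 (0.124) or chow 24 h replicate 2 (0.0704). In HFD the value was -0.35 ± 0.14 (adjusted p = 0.0664).

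In all, the 24 h and 0 h libraries did not overlap for 6 of 10 genes in HFD, where 35.4% of genes tested did not overlap, and for 8 of 10 in chow, where 45.5% did not. A lane tag in the labels bears on the chow values, and on the diet and interaction comparisons below that use 24 h libraries. All 3 chow 24 h libraries and HFD 24 h replicate 1 carry it and no 0 h library does, so in chow the tag and LPS can be separated only through the HFD 24 h libraries. With the tag as a covariate, 3 of the 8 calls in chow were left: Tfrc (-1.49 ± 0.43, adjusted p = 0.0356), Lcn2 (7.40 ± 0.53, adjusted p = 2.51e-07) and Cp (2.30 ± 0.59, adjusted p = 0.0167). The others kept their direction, with log2 fold changes of 1.09 ± 0.36 for Fth1 (adjusted p = 0.0599), 0.54 ± 0.20 for Slc11a1 (0.102), 0.28 ± 0.20 for Slc11a2 (0.459), -2.16 ± 1.03 for Slc40a1 (0.217) and -0.49 ± 0.24 for Aco1 (0.229). In HFD the libraries without the tag can be compared alone, and there the 6 called genes passed again: Lcn2 at 6.66 ± 0.36, Cp at 3.25 ± 0.43, Fth1 at 0.99 ± 0.21, Slc11a2 at 0.54 ± 0.13, Slc11a1 at 0.51 ± 0.12 and Slc40a1 at -2.54 ± 0.57. Ireb2 also passed there.

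Levels of different genes were compared as CPM per kilobase of transcript. At 0 h the order in both diets was Fth1, Ftl1, Slc11a1 and Tfrc, then Slc11a2 and Aco1, whose libraries overlapped, then Ireb2, then Slc40a1 and Lcn2, which also overlapped, and Cp. In chow 0 h these group means ran from 10428 for Fth1 (6484 with 1494 bases) to 0.885 CPM per kilobase for Cp. At 24 h Lcn2 stood in the fourth place, at 202 CPM per kilobase in HFD and 332 in chow, and Slc40a1 in the last, at 0.402 in HFD and 0.319 in chow. Neighbours that overlapped at 24 h were Slc11a2 and Tfrc in HFD and Slc11a1 and Lcn2 in chow.

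**Figure D3:**
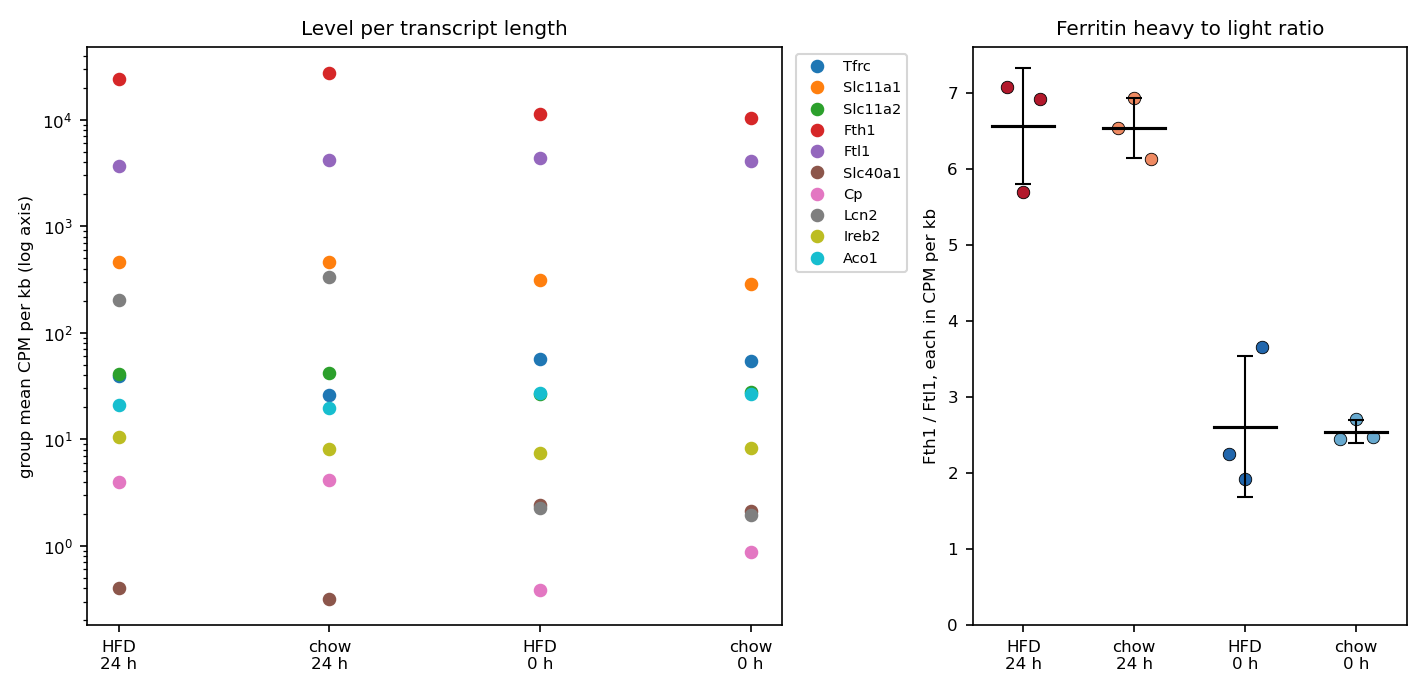
Left, group mean of each iron gene in CPM per kilobase of transcript on a log axis, for HFD 24 h, chow 24 h, HFD 0 h and chow 0 h. Right, Fth1 over Ftl1 in each library (points) with group mean and SD (n = 3): 6.57 and 6.54 in HFD 24 h and chow 24 h, 2.61 and 2.55 in HFD 0 h and chow 0 h.

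The diets were compared at each LPS time to ask whether the high fat diet altered these genes. None of the 10 passed at either time. At 24 h, 0 of 10 passed in edgeR, where 0.00791% of genes tested did, and 2 of the 10 had an unadjusted p under 0.05, as did 7.86% of genes tested. At 0 h, 0 of 10 passed, where 0.0870% did, and 1 of the 10 had an unadjusted p under 0.05, as did 6.15% of genes tested. DESeq2 and limma-voom also called 0 of the 10 at either time.

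The largest diet differences at 24 h were in Lcn2 and Tfrc. Lcn2 averaged 185 ± 10.3 CPM in HFD 24 h and 304 ± 101 CPM in chow 24 h (SD, n = 3 each), with every HFD library below every chow library. Its log2 fold change was -0.72 ± 0.22 (adjusted p = 0.443 by edgeR, 95% interval -1.17 to -0.26). Tfrc averaged 193 ± 39.6 CPM in HFD 24 h and 127 ± 23.3 CPM in chow 24 h, with overlapping libraries and a log2 fold change of 0.60 ± 0.25 (edgeR adjusted p = 0.61, interval 0.065 to 1.13). Ireb2 stood at 0.38 ± 0.19 (interval -0.019 to 0.78) and Fth1 at -0.19 ± 0.19 (interval -0.59 to 0.21). At 24 h every chow library carries the lane tag but only replicate 1 in HFD does, so diet and tag are partly confounded. With the tag as a covariate Lcn2 was at -0.71 ± 0.32 and Tfrc at 0.87 ± 0.33. Ireb2 then stood at -0.040 ± 0.24 and Fth1 at -0.00036 ± 0.27. Lcn2 and Ftl1 were the 2 of 10 genes whose libraries did not overlap, both lower in HFD, where 12.3% of genes tested did not overlap.

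At 0 h the largest difference was in Cp, which averaged 1.57 ± 0.80 CPM in HFD 0 h and 3.56 ± 1.96 CPM in chow 0 h (SD, n = 3 each). Its log2 fold change was -1.03 ± 0.42 (edgeR adjusted p = 0.706, 95% interval -1.92 to -0.14), and the libraries overlapped. Slc11a1, at 729 ± 32.5 CPM in HFD 0 h and 667 ± 6.47 CPM in chow 0 h, was the 1 gene of 10 whose libraries did not overlap (0.13 ± 0.11, edgeR adjusted p = 0.955), where 12.2% of genes tested did not. For Slc40a1 the interval at 0 h was wide, -0.64 to 1.27, around 0.31 ± 0.45.

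**Figure D4:**
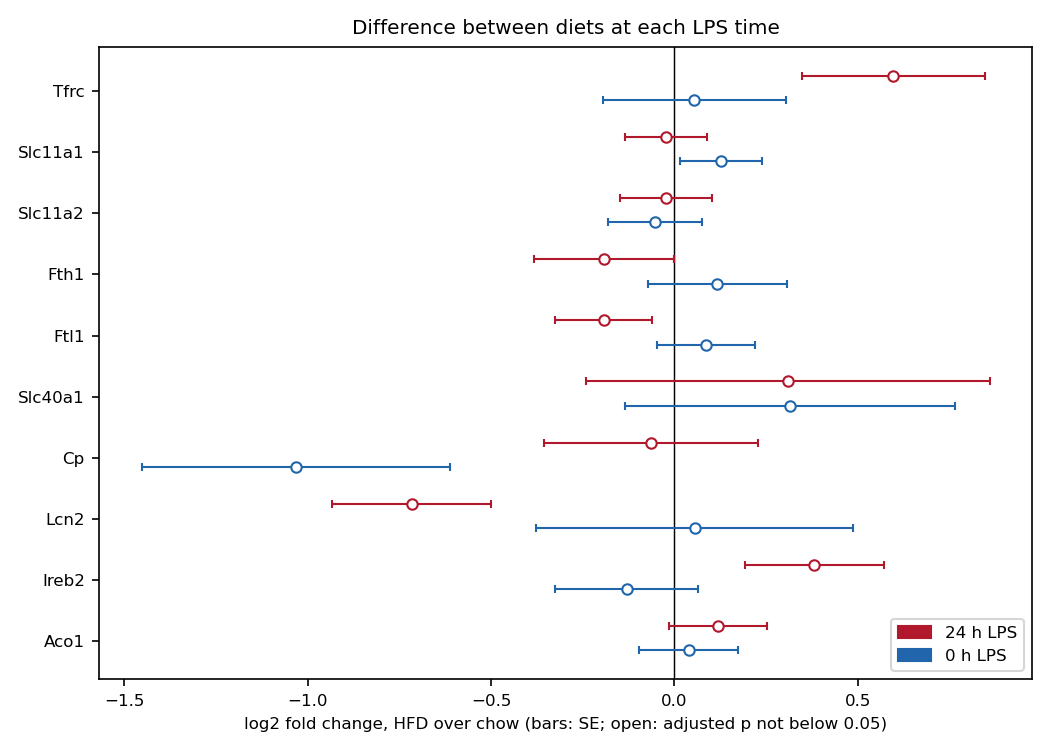
Log2 fold change of each iron gene, HFD over chow, after 24 h and 0 h of LPS, with bars for the SE. All points are open because no edgeR adjusted p was under 0.05, and the values farthest from 0 are Cp at 0 h (-1.03) and Lcn2 at 24 h (-0.72).

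Whether the LPS change itself differed between the diets was tested as an interaction. In edgeR 0 of 10 genes passed (adjusted p = 1 for each), 0 of the 10 had an unadjusted p under 0.05 (2.35% of genes tested did), and 0% of genes tested passed. DESeq2 and limma-voom called 0 of the 10. The largest estimates, HFD minus chow, were 0.97 ± 0.51 for Cp (95% interval -0.12 to 2.05), -0.77 ± 0.49 for Lcn2 (-1.80 to 0.26), 0.54 ± 0.35 for Tfrc (-0.21 to 1.29) and 0.51 ± 0.27 for Ireb2 (-0.063 to 1.09). Without HFD 0 h replicate 3 they were 0.86 ± 0.53 for Cp, -0.66 ± 0.54 for Lcn2, 0.31 ± 0.29 for Tfrc and 0.34 ± 0.23 for Ireb2. For Slc40a1 the estimate was -0.0048 ± 0.71, the widest error of the 10 genes.

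A wider list of 88 other iron genes was read beside these, of which 69 could be tested. With LPS, 9 rose and 11 fell in HFD (29.0% of the list, beside 24.6% of all genes tested), and 11 rose and 14 fell in chow (36.2%, beside 26.6%). The number that fell was 7 in HFD without HFD 24 h replicate 3, and 9 in chow without chow 0 h replicate 2. The 9 and 11 genes called in HFD were called in the same direction in chow, but the diets were tested in 1 model that shares its estimate of spread. The median log2 fold change of the 69 genes was 0.087 in HFD and 0.062 in chow, near that of all genes tested as given above. With the lane tag as a covariate, 5 rose and 6 fell in chow. In edgeR with all libraries, 0 genes of this list passed for diet at either time or for the interaction. For diet at 24 h, DESeq2 called 1 higher and 1 lower, edgeR without a filter called 1 higher, and edgeR without chow 24 h replicate 3 called 1 lower.

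Of 20 tested genes of haem and haemoglobin handling, 4 rose and 5 fell in each diet. Hmox1, the enzyme that frees iron from haem, rose by 1.25 ± 0.15 on the log2 scale in HFD (1022 CPM in HFD 24 h, 429 CPM in HFD 0 h; adjusted p = 6.08e-06, edgeR) and by 1.78 ± 0.15 in chow (adjusted p = 1.01e-07). Bach1, a haem-sensing repressor of Hmox1, had log2 fold changes of -1.26 ± 0.13 in HFD and -1.11 ± 0.12 in chow, and passed in both. Haptoglobin (Hp), the plasma binder of free haemoglobin, rose by 3.24 ± 0.27 in HFD and 2.48 ± 0.25 in chow, and Blvra, which reduces biliverdin made from haem, fell in both (-0.85 ± 0.16 in HFD and -1.005 ± 0.16 in chow). Alas1, the first enzyme of haem synthesis outside red cell precursors, rose by 1.27 ± 0.18 in HFD and 0.91 ± 0.18 in chow.

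Of 15 tested carriers, reductases and chaperones, 1 rose and 3 fell in HFD, and 1 rose and 4 fell in chow. Steap3, the reductase that acts on iron in endosomes beside transferrin receptor 1, had log2 fold changes of -1.59 ± 0.14 in HFD and -1.69 ± 0.14 in chow, and transferrin (Trf) of -1.59 ± 0.22 in HFD and -1.60 ± 0.22 in chow. The metal importer Slc39a14 rose (0.91 ± 0.20 in HFD and 0.98 ± 0.19 in chow) and its relative Slc39a8 fell (-0.99 ± 0.31 in HFD and -1.09 ± 0.31 in chow).

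Of 24 tested genes of mitochondrial iron and iron-sulfur clusters, 2 rose and 0 fell in HFD, and 4 rose and 1 fell in chow. The mitochondrial iron importer Slc25a37, or mitoferrin 1, rose most, by 3.36 ± 0.20 in HFD (adjusted p = 1.64e-09, edgeR) and 3.28 ± 0.19 in chow (adjusted p = 1.22e-09). Its mean level was 167 CPM in HFD 24 h, 180.2 CPM in chow 24 h, 16.1 CPM in HFD 0 h and 18.5 CPM in chow 0 h. Nfu1, an iron-sulfur cluster carrier, rose by 0.59 ± 0.18 in HFD and 0.74 ± 0.17 in chow. Isca2, of the same pathway, rose in chow (0.55 ± 0.17), and the mitochondrial transporter Abcb8 fell in chow (-0.71 ± 0.22); the HFD values of 0.30 ± 0.18 and -0.43 ± 0.23 did not pass.

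Of 10 tested genes of systemic iron control and control of the regulatory proteins, 2 rose and 3 fell in HFD, and 2 rose and 4 fell in chow. Fbxl5, the ubiquitin ligase subunit that marks iron regulatory protein 2 for breakdown when iron is plentiful, rose by 1.09 ± 0.20 in HFD (adjusted p = 0.000511, edgeR) and 1.18 ± 0.20 in chow (adjusted p = 0.00019). The hypoxia-inducible factor Hif1a rose (1.84 ± 0.19 in HFD and 1.60 ± 0.18 in chow) while its relative Epas1 fell (-2.46 ± 0.17 in HFD and -2.80 ± 0.17 in chow). Bmp2, a signalling protein of the family that controls hepcidin in liver, fell by 1.14 ± 0.21 on the log2 scale in HFD and by 1.55 ± 0.20 in chow.

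**Figure D5:**
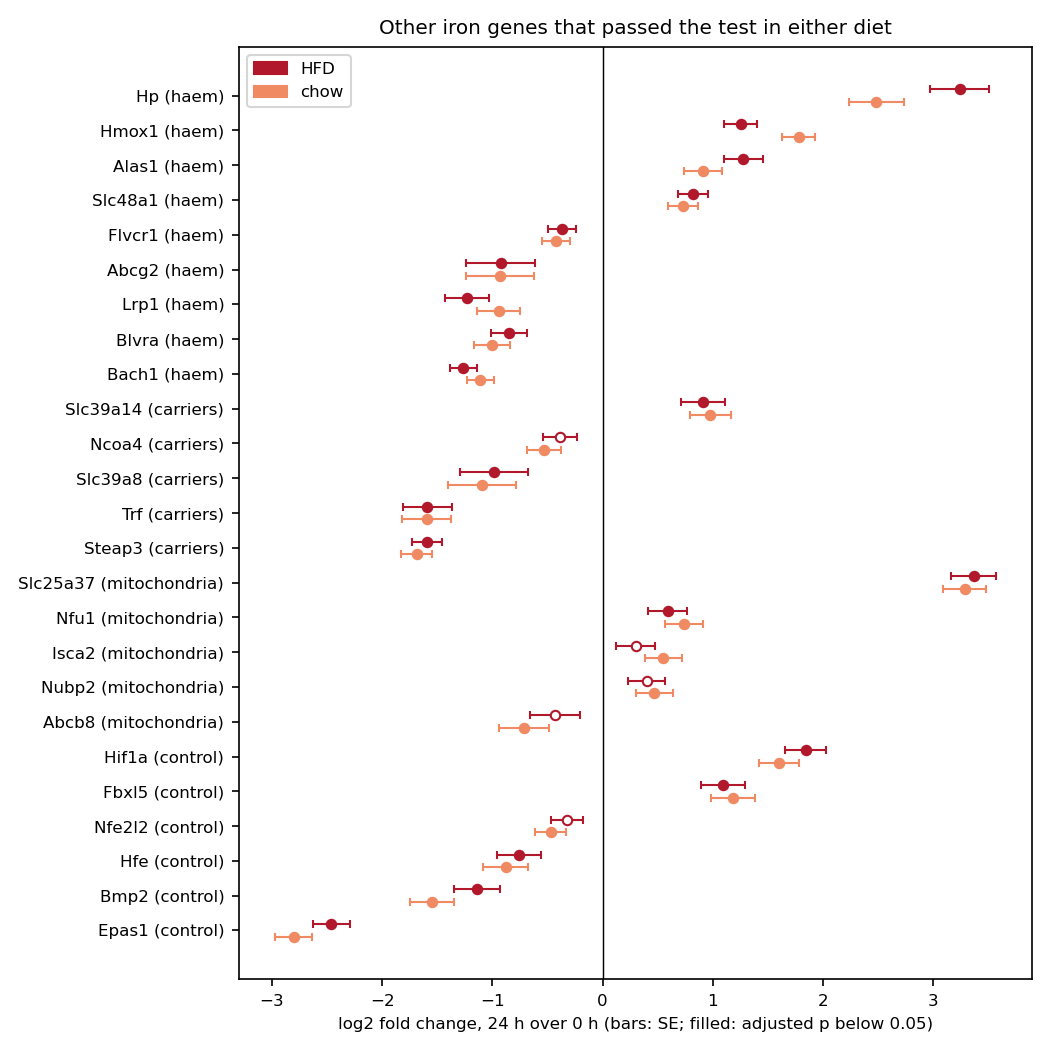
Log2 fold change, 24 h over 0 h of LPS, of the 25 other iron genes that passed in at least 1 diet, in HFD (dark) and chow (light), with bars for the SE and filled points where the edgeR adjusted p was under 0.05. Slc25a37 stands highest at 3.36 in HFD and 3.28 in chow, and Epas1 lowest at -2.46 in HFD and -2.80 in chow.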

How the data were processed

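RNA was isolated and libraries made with Qiagen and NuGen Ovation Universal kits, per the labels' protocols. Per the submitters' processing notes, the tools were CASAVA 1.8.2 and STAR 2.5.2b with mm10. Neither a read counter nor its use of strand was given in the sources used here. The deposited values are raw counts, without normalization, for 35745 RefSeq transcripts in 12 libraries. Symbols came from RefSeq (35440) and GENCODE (188) tables; 117 identifiers without a symbol (2.33% to 12.02% of a library) kept their identifier, and stayed in totals and tests. The transcript with the highest mean stood for its gene. Groups came from diet and LPS time. CPM used totals scaled by TMM. Genes passing filterByExpr (12641) were tested by glmQLFit (robust) and glmQLFTest of edgeR 4.0.16, R 4.3.3, in 1 model of 4 group means, with Benjamini-Hochberg adjustment at 0.05. The SE is the absolute coefficient over the square root of F, so it is not independent of p. The code was tested on simulated data. No libraries were duplicates by a chi-square test of counts. Alternatives were other scalings and filters, DESeq2 1.42.0, limma-voom (limma 3.58.1), only the groups compared, a replicate block, the lane tag, other transcript choices and each library left out. The genes and lists were chosen with earlier results of these data known. All 10 genes were named, with up to 4 per list and comparison of the other iron genes by smallest adjusted p; a gene named for 1 diet is given in both. Marker lists were for macrophages, neutrophils, erythroid and stromal cells; lists for B, T and NK, mast and dendritic cells summed to at most 36.6 CPM in any library.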

Additional observations from a re-analysis of the deposited data

How the results depend on the processing

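Of the 10 iron genes, 8 passed for LPS in chow, with 7 to 8 when 1 library was left out and 3 with the lane tag; 6 passed in HFD, with 6 to 7 when 1 library was left out. None passed for diet or the interaction under any alternative run. Over all genes, 3357 passed for LPS in chow, with 1509 under the lane tag. For diet at 0 h, 11 passed, with 23 without a filter, 66 with DESeq2 and 18 with the replicate block. For diet, the block grouped libraries by the replicate number in their titles, and no label links these numbers across the diets. When 1 library was left out, 7 to 25 passed for diet at 0 h. For diet at 24 h, 1 passed, with 10 without a filter, 41 with DESeq2, 10 with limma-voom, 0 with only the groups compared, 0 with the lane tag and 0 to 4 when 1 library was left out. For the interaction 0 passed (297 at an unadjusted p under 0.05), with 3 without a filter, 9 with DESeq2, 4 with the block and 0 to 3 when 1 library was left out. The causes were not tested.

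Some log2 fold changes that had not passed the test changed sign. For LPS in chow, Ftl1 was -0.040 with upper-quartile factors and -0.095 with the lane tag, and Ireb2 was 0.55 with the lane tag. For diet at 0 h, Lcn2 was -0.088 with limma-voom. For diet at 24 h the lane tag gave 0.074 for Slc11a1, 0.18 for Slc11a2, -0.085 for Slc40a1 and -0.040 for Ireb2. The interaction of Slc40a1 was 0.021 without a filter, 0.18 with the replicate block and 0.029 with transcripts summed.

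Leaving out 1 library gave these ranges where a sign changed. For LPS in chow, Ftl1 was -0.018 to 0.076 and Ireb2 -0.071 to 0.015. For diet at 0 h, Tfrc was -0.11 to 0.29, Slc40a1 -0.25 to 0.64, Fth1 -0.22 to 0.30, Ftl1 -0.024 to 0.19, Lcn2 -0.54 to 0.59, Ireb2 -0.30 to 0.051 and Aco1 -0.013 to 0.096. For diet at 24 h, Slc11a1 was -0.063 to 0.017, Slc11a2 -0.12 to 0.050, Slc40a1 -0.34 to 0.64 and Cp -0.23 to 0.21. For the interaction, Slc11a2 was -0.072 to 0.10, Slc40a1 -0.65 to 0.56, Fth1 -0.49 to 0.034 and Aco1 -0.025 to 0.18.

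Libraries at 24 h and 0 h share numbers in the labels, which do not say what the numbers stand for. They were not taken as pairs, because not every pair's correlation was over 0.1. Between 24 h and 0 h libraries of the same number, deviations from the group means correlated at 0.029 to 0.35, with 3 of 6 pairs over 0.1. Yet 9 of 12 libraries correlated best with their own number, a hint that the numbers mark pairs. If they do, the main tests left that pairing out. With the replicate block, which for LPS groups libraries by these numbers, 8 of the 10 genes passed in chow and 6 in HFD. In HFD, Aco1 passed with upper-quartile factors (adjusted p = 0.0214, edgeR) and without HFD 24 h replicate 3 (0.0466), and Ireb2 passed with the lane tag (0.021), without a filter (0.0499) and without HFD 0 h replicate 2 (0.0448). Aco1 in chow did not pass without a filter (0.0539). Depth limits Slc40a1 at 24 h, Lcn2 and Cp at 0 h, and all values of HFD 0 h replicate 3.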
